A study of Mus musculus with 2 samples.

Results

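The genes described here encode the structural proteins of the tumour's extracellular matrix: the collagens, the laminins, the fibulins, and 10 further matrix proteins (Fn1, Dcn, Bgn, Lum, Sparc, Fbn1, Postn, Nid1, Nid2 and Hspg2). They were chosen by gene symbol from the deposited table, which gave 69 genes of 26601 named genes. All 69 symbols occurred once in the table. The values came from 2 RNA sequencing libraries of CT26 tumours, a colon carcinoma line of the BALB/c mouse, implanted subcutaneously in wild-type mice of that strain. Animals carrying tumours near 200 mm3 were injected into a vein with empty nanoparticles (Empty NP) or with nanoparticles loaded with FuOXP (FuOXP NP), a conjugate of fluorouracil and oxaliplatin, at 10 mg/kg. Both groups were injected 3 times at intervals of 5 days, and tumours were collected 24 h after the last injection. Each group had 3 mice, but there was 1 library per group, and the sources used here state neither a pooling of tumours nor the age and sex of the mice. Without replicates no difference could be tested, and every comparison, higher or lower, is between 2 single libraries.

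Extracellular matrix is laid down in distinct forms. Fibrillar collagens assemble into the cable-like fibres of connective tissue and are made mainly by fibroblasts. Basement membranes are thin sheets under epithelia, around blood vessels and around muscle fibres, built from a laminin network and a type IV collagen network that are linked by nidogens and by perlecan. Small leucine-rich proteoglycans such as decorin coat collagen fibrils and regulate their thickness. In tumours grown under the skin, the matrix comes from both the cancer cells and the host stroma.

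Levels are given as TPM, a transcript abundance per unit of transcript length that sums to the same total in each library, so genes can be compared with each other within a library. Differences are log2((FuOXP NP + 1)/(Empty NP + 1)), a scale on which the change of a low gene looks smaller than it is. The typical gene was itself lower in FuOXP NP: the median over the 9488 named genes that averaged at least 1 TPM was -1.44, or 2.71-fold lower. This 2.71 carries the added 1 TPM, the pseudocount, which the folds on reads below do not. In Empty NP 47.3% of all TPM fell on the 20 most abundant rows, and in FuOXP NP 81.8% did. Differences are therefore also given relative to that median gene. Low TPM values are multiples of a step set by 1 read, from which read numbers were recovered with the exon lengths. All named genes summed to 448410 recovered reads for Empty NP and 935293 for FuOXP NP. Lars2 alone held most of those of FuOXP NP. The named genes other than Lars2 summed to 318730 reads for Empty NP and 210711 for FuOXP NP, which is shallow. Intervals in brackets are exact 95% Clopper-Pearson intervals of the fold on these reads and cover counting error only. Beside them stands the typical gene with at least 50 reads, which was 3.19-fold lower.

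Over the 69 genes, the matrix transcripts summed to 479 TPM in Empty NP against 170 TPM in FuOXP NP, or 0.0478% and 0.0170% of the libraries. Of the 69 genes, 40 were above 0 in both libraries, 9 were listed at 0 in FuOXP NP only, 3 were listed at 0 in Empty NP only, and 17 were listed at 0 in both. A mean of 1 TPM or more was reached by 34 genes. Of these, 28 were at least 2-fold lower in FuOXP NP and none was 2-fold higher, a share of 82.4%, where 69.8% of all 9488 genes were 2-fold lower and 2.34% were 2-fold higher. Of those 28, Bgn, Col17a1, Col18a1, Col1a1, Col5a2, Col5a3, Col6a3, Fbln2 and Postn were under 1 TPM in FuOXP NP. They entered through their level in Empty NP, as the filter allowed for all 9488 genes. When those 20 rows were dropped and the libraries scaled again, 9 of 42 were 2-fold lower and 2 were 2-fold higher, where 29.6% and 16.2% of all genes were. The median difference of the 34 was -1.52 beside -1.44 for all genes. Set against the median gene, 16 members were above it and 18 were below. The pseudocount draws the differences of low genes towards 0, so some stood above the median gene despite large TPM folds. Postn, 0.18 above it, was 5.60-fold lower by TPM, and Col14a1, 0.47 above it, was 3.73-fold lower. At 2-fold from the median gene there were 2 members above and 2 below, where 12.6% and 12.2% of all genes lay. On this scale, by this median and these counts, the matrix genes as a whole stood close to the median gene. Of the 34, only Col5a3 was listed at 0 in FuOXP NP, where 13% of all 9488 genes were. Gene lengths were not matched in this comparison, and 1 read adds less TPM on a longer gene.

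**Figure D1:**
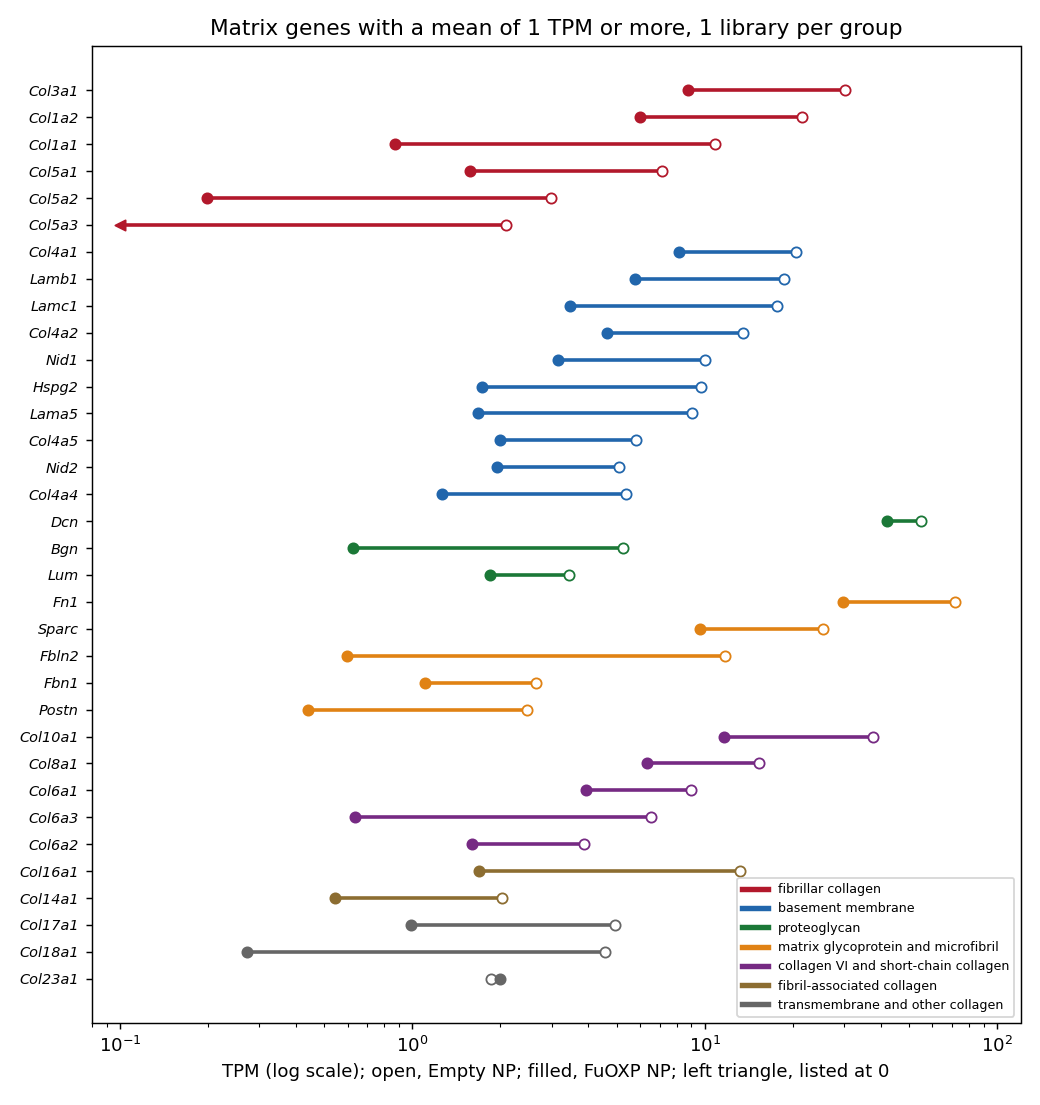
TPM of each of the 34 matrix genes that averaged at least 1 TPM, on a log axis, in Empty NP (open) and FuOXP NP (filled), 1 library per group, coloured by class. As deposited 33 of the 34 points moved left in FuOXP NP and Col23a1 did not, and Dcn kept the shortest line of the abundant genes, from 54.7 to 42.1 TPM; after rescaling without the 20 most abundant rows 14 of 42 members were higher in FuOXP NP.

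The direction of single members depended on the scaling. The rescaling multiplies each FuOXP NP to Empty NP ratio by 2.90, so a gene less than 2.90-fold lower as deposited is higher after it. After that rescaling, 14 of the 42 members that then reached 1 TPM were higher in FuOXP NP, among them Col23a1, Col24a1, Col4a1, Col6a1, Col6a2, Col8a1, Dcn, Fbn1, Fn1, Lamb2, Lum, Nid2 and Sparc. The median of all genes was then -0.27. Col23a1 was higher on both scales. Directions below are as deposited, and they turn with the rescaling for the rest of these genes and for any other gene named below at less than 2.90-fold lower.

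Among the fibrillar collagens, the abundant members were Col3a1 and Col1a2. Type I collagen is a trimer of chains encoded by Col1a1 and Col1a2, type III collagen consists of Col3a1 chains, and type V collagen sits in the core of type I fibrils. Col3a1 (chromosome 1, 45311538 to 45349706, plus strand) was at 30.1 TPM in Empty NP against 8.75 TPM in FuOXP NP, on 83 and 45 reads. Col1a2 (chromosome 6, 4504814 to 4541544, plus strand) was at 21.5 and 5.99 TPM, on 75 and 39 reads. Both were lower by about the same factor, 3.44-fold (2.37 to 5.07) for Col3a1 and 3.59-fold (2.41 to 5.43) for Col1a2, and both intervals hold the 3.19-fold of the typical gene.

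Col1a1 (chromosome 11, 94936224 to 94953042, plus strand) stood further down. It was at 10.9 TPM in Empty NP against 0.872 TPM in FuOXP NP, on 20 and 3 reads. This amounts to 12.4-fold lower (3.69 to 65.4), and the whole interval lies beyond the typical gene. The log2 difference of Col1a1 was -2.66 and its rank by level among the named genes went from 3215 to 7062, while Col1a2 stayed at ranks 1811 and 1904. The ratio of Col1a2 to Col1a1 was 1.98 (1.20 to 3.43) in Empty NP and 6.87 (2.18 to 34.7) in FuOXP NP. These intervals overlap, as do those of the 2 folds. Overlap is not a test, and a shift between the chains of type I collagen was not tested.

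The type V chains were lower too. Col5a1, the main chain of type V collagen, was at 7.13 and 1.57 TPM on 17 and 7 reads, 4.53-fold lower (1.79 to 12.9). Its partner Col5a2 was at 2.97 and 0.199 TPM with 8 reads against 1 read, 14.9-fold lower (2.0 to 663). Col5a3 was at 2.09 TPM on 4 reads in Empty NP, and FuOXP NP lists it at 0. Pooled over type V the reads were 29 and 8, or 6.77-fold lower (3.02 to 17.1), which takes in the typical gene.

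All 6 fibrillar collagens that reached 1 TPM were at least 2-fold lower, where 69.8% of all 9488 genes were, and all 6 lay below the median gene. Of these, Col1a1, Col5a2 and Col5a3 were under 1 TPM in FuOXP NP and entered through their level in Empty NP. Apart from Col1a1 at -2.66 the differences of the class ran from -1.73 to -1.63. This closeness comes with the pseudocount of 1 TPM, since the folds of the TPM values ran from 3.44 for Col3a1 to 14.9 for Col5a2. The class median was -1.68, or -2.74 with a pseudocount of 0.1 TPM, and -1.69 without Col5a3, with -0.24 after centring on the median gene and -0.59 after rescaling. Of the other members, Col24a1, a fibrillar chain known from developing bone and cornea, rested on 1 read in each library. Col2a1, Col11a1, Col11a2 and Col27a1, fibrillar chains typical of cartilage, were listed at 0 in both libraries. Pooled, the class had 208 and 96 reads, 4.04-fold lower (3.16 to 5.21), and 3.77-fold lower (2.93 to 4.89) without Col1a1. Both intervals hold the typical gene.

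The promoters of the most abundant fibrillar chains are shown because Col3a1 and Col1a2 differed by nearly the same factor in these libraries while the sequence before their starts is unlike. Each window runs from 250 bases before to 50 bases after the RefSeq start (GRCm38.p6), 5′ to 3′ on the gene's strand, with capitals for 3 searched motifs. These were the CCAAT box, the GC box with the letters GGGCGG, and the TATA motif with the letters TATAAA, each on either strand, and no matches overlap in the windows shown. The Col3a1 window is chr1:45311288-45311587 and the Col1a2 window is chr6:4505368-4505667, both on the plus strand.
Col3a1: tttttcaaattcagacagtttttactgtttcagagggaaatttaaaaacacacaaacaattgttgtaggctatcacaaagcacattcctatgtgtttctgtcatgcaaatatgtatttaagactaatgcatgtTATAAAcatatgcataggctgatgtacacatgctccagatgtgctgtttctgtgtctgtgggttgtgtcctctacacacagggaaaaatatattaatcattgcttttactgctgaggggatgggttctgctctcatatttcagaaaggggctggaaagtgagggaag
Col1a2: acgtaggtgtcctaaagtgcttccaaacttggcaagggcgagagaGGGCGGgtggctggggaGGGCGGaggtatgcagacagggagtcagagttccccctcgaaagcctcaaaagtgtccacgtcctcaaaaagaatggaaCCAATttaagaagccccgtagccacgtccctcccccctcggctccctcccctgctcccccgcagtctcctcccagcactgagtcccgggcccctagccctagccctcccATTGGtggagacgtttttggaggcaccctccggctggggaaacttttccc
The Col3a1 window had a G and C content of 37.7% and held a TATAAA that starts 117 bases before the start, with neither of the other motifs. The Col1a2 window had 61% and held 2 CCAAT and 2 GGGCGG matches, of which the CCAAT on the plus strand starts 109 bases before the start. RefSeq windows were found for 50 of the 69 members, 57 windows in all. Of these, 31.6% held CCAAT, 57.9% GGGCGG and 10.5% TATAAA, where 37.4%, 35.7% and 13.6% of all 32851 windows did, and the median G and C content was 60% beside 52.7%. A match describes the letters only.

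The basement membrane genes were more numerous. All 10 of the 20 members that reached 1 TPM were at least 2-fold lower as deposited, where 69.8% of all genes were, but set against the median gene 5 were above and 5 below. That split is on the scale with the pseudocount, which makes the change of a low gene look smaller. The class median was -1.45, with -0.01 after centring on the median gene, and the range was -2.06 to -1.05. After rescaling the class median was -0.15 over the 15 members that then reached 1 TPM, beside -0.27 for all genes. Col4a1, Lamb2 and Nid2 were among the members then higher in FuOXP NP.

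Type IV collagen forms the network of the basement membrane, and its ubiquitous form combines Col4a1 and Col4a2 chains. Col4a1 was at 20.5 TPM in Empty NP against 8.18 TPM in FuOXP NP on 43 and 32 reads, 2.51-fold lower (1.55 to 4.10). Col4a2 was at 13.5 and 4.61 TPM on 25 and 16 reads, 2.92-fold lower (1.50 to 5.85). The ratio of Col4a1 to Col4a2 was 1.53 (0.91 to 2.61) in Empty NP and 1.77 (0.95 to 3.46) in FuOXP NP. These intervals overlap, and a shift between the chains was not tested. The genes lie head to head on chromosome 8, and their exons overlap, so reads in the overlap may be shared.

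Their promoters are shown because the pair shares a start region. The RefSeq starts lie 21 bases apart on opposite strands, and the windows have 78 bases in common. The Col4a1 window is chr8:11312777-11313076 on the minus strand and the Col4a2 window is chr8:11312555-11312854 on the plus strand (GRCm38.p6), written and capitalised as for the fibrillar collagens.
Col4a1: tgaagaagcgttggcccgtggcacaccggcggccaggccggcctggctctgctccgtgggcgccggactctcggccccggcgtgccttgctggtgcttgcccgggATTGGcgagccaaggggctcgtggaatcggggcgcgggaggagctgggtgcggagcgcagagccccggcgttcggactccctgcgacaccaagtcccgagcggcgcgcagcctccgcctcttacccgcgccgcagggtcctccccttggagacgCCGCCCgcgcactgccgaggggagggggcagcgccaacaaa
Col4a2: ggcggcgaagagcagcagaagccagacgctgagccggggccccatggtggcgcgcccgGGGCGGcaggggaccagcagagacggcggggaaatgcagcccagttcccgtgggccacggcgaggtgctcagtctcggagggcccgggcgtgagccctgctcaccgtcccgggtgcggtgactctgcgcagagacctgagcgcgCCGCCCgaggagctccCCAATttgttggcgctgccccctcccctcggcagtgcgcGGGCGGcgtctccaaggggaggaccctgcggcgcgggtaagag
Both windows were rich in G and C, at 74% and 73.7%, and held no TATAAA. Each held 1 CCAAT, which starts 145 bases before the start of Col4a1, on the strand opposite to the gene, and 32 bases before the start of Col4a2. The Col4a1 window held 1 GGGCGG match and the Col4a2 window held 3. The match of Col4a1 lies in the shared bases and is the same site as 1 of the 3 of Col4a2.

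The other type IV pairs are also head to head but less even in level. Col4a4 was at 5.37 and 1.26 TPM on 16 and 7 reads, 4.27-fold lower (1.66 to 12.3). Its neighbour Col4a3, 71 bases away on chromosome 1, had 4 reads against 1 read. Col4a5 on the X chromosome was at 5.83 and 1.99 TPM on 11 and 7 reads, 2.93-fold lower (1.04 to 8.92). Its neighbour Col4a6 rested with 2 reads against 1 read. Col4a3, Col4a4 and Col4a5 chains make up the network of the kidney glomerulus, and in each of these pairs 1 gene held most of the reads in both libraries. Pooled over the 6 genes, type IV collagen had 101 and 64 reads, 2.95-fold lower (2.13 to 4.09).

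Laminins are trimers of an alpha, a beta and a gamma chain. The abundant chains were those of the trimer of Lama5, Lamb1 and Lamc1, which is widespread in adult basement membranes. Lamb1 was at 18.7 and 5.77 TPM on 52 and 30 reads, 3.24-fold lower (2.03 to 5.25). Lamc1 was at 17.7 and 3.46 TPM on 41 and 15 reads, 5.10-fold lower (2.77 to 9.92). Lama5 was at 9.07 and 1.68 TPM on 29 and 10 reads, 5.41-fold lower (2.56 to 12.5). In both libraries Lamb1 was the highest and Lama5 the lowest of the 3, with a Lamb1 to Lama5 ratio of 2.06 (1.28 to 3.36) in Empty NP and 3.44 (1.64 to 7.90) in FuOXP NP. Lamb1 and Lamc1 did not differ within either library beyond counting error, at ratios of 1.06 (0.69 to 1.63) and 1.67 (0.87 to 3.34).

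The promoter of Lamb1, the most abundant laminin gene, is shown for comparison with the collagens (chr12:31265043-31265342, plus strand, GRCm38.p6).
Lamb1: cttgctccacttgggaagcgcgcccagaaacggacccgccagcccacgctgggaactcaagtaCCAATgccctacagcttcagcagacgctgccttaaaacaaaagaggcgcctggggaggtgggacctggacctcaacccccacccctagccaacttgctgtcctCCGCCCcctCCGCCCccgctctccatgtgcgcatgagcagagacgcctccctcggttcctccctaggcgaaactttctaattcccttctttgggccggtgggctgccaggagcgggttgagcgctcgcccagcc
The window had a G and C content of 63.7% and held 1 CCAAT, which starts 187 bases before the start, and 2 GGGCGG matches on the minus strand. None of the 13 windows of basement membrane genes held TATAAA, and 69.2% held GGGCGG, where 13.6% and 35.7% of all 32851 windows did. With 13 windows, none with TATAAA is close to that share.

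The remaining laminin chains were near the limit of detection. Lama2 and Lama4, the alpha chains of muscle and of vessel walls, had 4 and 3 reads in Empty NP, with Lama2 listed at 0 and Lama4 on 1 read in FuOXP NP. Lamb2 had 2 reads in each library. Lama3 and Lamc3 had 1 read each in Empty NP and were listed at 0 in FuOXP NP, and Lama1 and Lamb3 were listed at 0 in both. Over the laminin genes together the reads were 135 and 61, 4.13-fold lower (3.03 to 5.69), a range that overlaps that of type IV collagen and holds the typical gene.

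The linkers of the basement membrane were lower too. Hspg2, which encodes perlecan, a large heparan sulfate proteoglycan, was at 9.71 and 1.73 TPM on 39 and 13 reads, 5.60-fold lower (2.93 to 11.4). Nid1, which bridges laminin and type IV collagen, was at 10.0 and 3.16 TPM, on about 19.5 and 11.5 reads by the annotated exon length, 3.17-fold lower (1.46 to 7.25). Nid2 was at 5.10 and 1.95 TPM on about 7.42 and 5.30 reads, 2.61-fold lower (0.744 to 9.96). Exons of Nid2 overlap those of Rtraf, at 142 and 84.6 TPM, so its reads may be shared. The whole class had 302 and 155 reads, 3.64-fold lower (2.99 to 4.45), which overlaps the 4.04-fold (3.16 to 5.21) of the fibrillar collagens. At this depth neither class could be set apart from the other or from the typical gene.

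**Figure D2:**
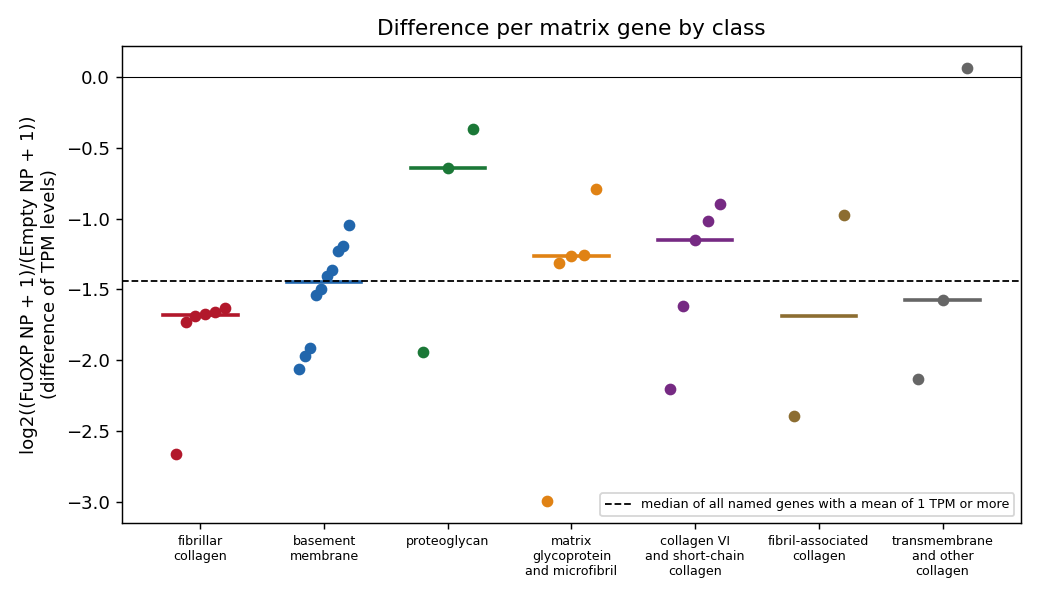
Log2 difference of TPM levels, FuOXP NP against Empty NP with a pseudocount of 1 TPM, for each of the 34 genes by class, with a bar at the class median and a dashed line at the median gene (-1.44). All 6 fibrillar collagens lay below the dashed line, the 10 basement membrane genes straddled it, and Dcn and Lum lay above it as deposited, at -0.37 and -0.64, and above 0 after rescaling, at 1.15 and 0.56.

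Of the small leucine-rich proteoglycans, Dcn, which encodes decorin, a collagen-binding proteoglycan made by fibroblasts (chromosome 10, 97479609 to 97518143, plus strand), was at 54.7 TPM in Empty NP against 42.1 TPM in FuOXP NP. By the annotated exon length this came to about 89.6 and 129 reads, which are not whole numbers, so the length used by the authors may differ. The difference of -0.37, 1.30-fold lower (0.981 to 1.71), was within counting error of equality as deposited, and Dcn was higher after rescaling, at 1.15. Relative to the median gene Dcn lay 1.07 above, and its interval stayed wholly short of the 3.19-fold of the typical gene. Its rank by level went from 776 to 409, which made it the most abundant matrix gene in FuOXP NP.

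Lum, which encodes lumican, was at 3.43 and 1.84 TPM on about 2.36 reads in each library, too few to place, at 1.87-fold lower (0.178 to 19.6). Bgn, which encodes biglycan, the closest relative of decorin, was at 5.26 and 0.626 TPM on 9 and 2 reads, 8.40-fold lower (1.74 to 79.9). The ratio of Dcn to Bgn was 10.4 (5.24 to 23.5) in Empty NP and 67.3 (18.3 to 562) in FuOXP NP. These ratio intervals overlap, while the fold intervals of Dcn (0.981 to 1.71) and Bgn (1.74 to 79.9) lie just apart. Neither comparison is a test, and Bgn rested on 9 and 2 reads. Pooled over the 3 genes the fold was 1.42 (1.08 to 1.85), below the intervals of the fibrillar and basement membrane classes. It rested on Dcn: without it the fold was 4.86 (1.50 to 19.5) on 11 and 4 reads.

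Markers of fibroblasts, which make decorin, were measured beside it. Of the 8 markers, Vim, an intermediate filament gene that tumour cells also express, was at 241 and 68.8 TPM, 3.50-fold lower (2.90 to 4.24). The other 7 had 18 and 25 reads together, 1.34-fold lower (0.685 to 2.57) as deposited, a grouping chosen after its values were seen. Of the 6 that reached 1 TPM, 5 were above the median gene and 1 was below. The part of fibroblast content in the levels of Dcn was not tested, and in whole tumours fewer cells of a type and less RNA per cell cannot be told apart.

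Of the matrix glycoproteins, Fn1 was the most abundant matrix gene in Empty NP. It encodes fibronectin, an integrin ligand of provisional matrix (chromosome 1, 71585520 to 71653200, minus strand). It was at 71.9 TPM in Empty NP against 29.6 TPM in FuOXP NP on 236 and 181 reads, the most of any member. This amounts to 2.43-fold lower (2.0 to 2.97), less than the typical gene by its whole interval. The interval does hold 2.71-fold, the median over all genes, but that value carries the pseudocount and the interval does not. After rescaling Fn1 was higher in FuOXP NP, at 0.25. Exons of Fn1 overlap those of the antisense gene Apol7d, which was at 1025 and 530 TPM, and without a stated strand the reads in the overlap cannot be told apart.

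Fn1 and Dcn exchanged places at the top. The ratio of Fn1 to Dcn was 1.32 (1.03 to 1.70) in Empty NP and 0.70 (0.56 to 0.89) in FuOXP NP, and these intervals do not overlap. The ratio of Dcn to Col1a2 went from 2.54 (1.85 to 3.50) to 7.03 (4.88 to 10.3), again with intervals apart. Such ratios do not depend on the scaling of the libraries, and the pairs were chosen after their values were seen. Together Fn1 and Dcn held 26.5% (Empty NP) and 42.2% (FuOXP NP) of the summed matrix TPM. Without both, the other 67 genes were 3.77-fold lower (3.33 to 4.28), with 753 and 373 reads, where all 69 were 2.95-fold lower (2.68 to 3.25). The first interval lies wholly beyond the 3.19-fold of the typical gene and the second holds it. The 2 genes left out are those whose own intervals lay short of the typical gene.

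Sparc, which encodes a collagen-binding protein of remodelling tissue, was at 25.4 and 9.63 TPM on 27 and 19.1 reads, 2.64-fold lower (1.41 to 5.01). Fbln2, which encodes fibulin-2, a protein of elastic fibres and basement membranes (chromosome 6, 91212455 to 91272540, plus strand), was at 11.7 TPM on 21 reads in Empty NP and 0.599 TPM on 2 reads in FuOXP NP. Its log2 difference of -2.99 was the lowest of all members and 19.6-fold lower (4.79 to 172), beyond the typical gene by its whole interval. Of the other fibulins, Fbln1 had 1 read in Empty NP, Fbln5 about 1.19 reads in FuOXP NP, and Fbln7 was listed at 0 in both.

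Fbn1, which encodes fibrillin-1 of the microfibrils, was at 2.64 and 1.10 TPM on 9 and 7 reads, 2.40-fold lower (0.795 to 7.58). Postn, which encodes periostin, a product of activated stroma, was at 2.46 and 0.438 TPM on 6 and 2 reads, 5.60-fold lower (1.0 to 56.7). These read numbers do not set them apart from the typical gene. The pooled class of 8 genes was 2.64-fold lower (2.21 to 3.16), from 300 and 212 reads, and 3.81-fold lower (2.45 to 6.05) without Fn1.

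Collagen VI forms beaded filaments from Col6a1, Col6a2 and Col6a3 chains. Col6a1 was at 8.94 and 3.92 TPM on 11 and 9 reads, 2.28-fold lower (0.860 to 6.23), and Col6a2 at 3.85 and 1.60 TPM on 9 and 7 reads, 2.40-fold lower (0.795 to 7.58). Col6a3 (chromosome 1, 90765923 to 90843971, minus strand) was at 6.55 and 0.638 TPM on 22 and 4 reads, 10.3-fold lower (3.49 to 41.0). Its interval lies wholly beyond the typical gene, while those of Col6a1 and Col6a2 hold it and reach below 1. The ratio of Col6a1 to Col6a3 was 1.37 (0.60 to 2.94) in Empty NP and 6.15 (1.72 to 27.3) in FuOXP NP, with overlapping intervals. Of the minor chains, Col6a4 and Col6a6 had 1 read in 1 library each, and Col6a5 was listed at 0 in both.

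Among short-chain collagens, Col8a1, a network collagen of vessel walls and of Descemet's membrane, was at 15.3 and 6.35 TPM on about 33.7 and 26.1 reads, 2.42-fold lower (1.41 to 4.19), and Col8a2 was listed at 0 in both. Col10a1, known as the collagen of hypertrophic cartilage, was listed at the highest level of all collagens in both libraries. It was at 37.5 TPM in Empty NP against 11.6 TPM in FuOXP NP on 33 and 19 reads, 3.24-fold lower (1.79 to 6.04), close to the typical gene. Col3a1 came next at 30.1 and 8.75 TPM on more reads, 83 and 45. The order of these genes depends on the transcript length used and was not tested. Of 6 markers of cartilage and bone, Acan, Matn1, Sp7, Bglap and Ibsp were listed at 0 in both libraries, and Sox9 had 3 reads against 1 read. Exons of Col10a1 overlap those of Nt5dc1 on the other strand, which was at 1.12 and 1.20 TPM. Whether the reads listed under Col10a1 came from its messenger RNA was not tested.

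Of the fibril-associated collagens, which sit on the surface of fibrils, Col16a1 was at 13.2 TPM on 25 reads in Empty NP and 1.70 TPM on 6 reads in FuOXP NP. It was 7.78-fold lower (3.11 to 23.2), and the interval just reaches the typical gene. Col14a1 was at 2.03 and 0.544 TPM on 4 and 2 reads, and Col12a1 had 4 reads against 1 read. Col19a1 and Col20a1 had about 1 read each in Empty NP and were listed at 0 in FuOXP NP, and Col9a1, Col9a2, Col9a3 and Col22a1 were listed at 0 in both.

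Col17a1, the hemidesmosome collagen of epithelia, was at 4.94 and 0.993 TPM on about 8.34 and 3.13 reads, 4.98-fold lower (1.23 to 27.8). Col18a1, a basement membrane collagen whose end fragment is endostatin, was at 4.57 and 0.272 TPM with 9 reads against 1 read, 16.8-fold lower (2.33 to 736). Col23a1, a transmembrane collagen, went the other way at 1.86 and 2.0 TPM on 3 and 6 reads, with an interval from 4.37-fold lower to above equality. It was the only one of the 34 members that was not lower as deposited. Col15a1 had 2 reads in Empty NP and Col25a1 had 1 in FuOXP NP, while Col7a1, Col13a1, Col26a1 and Col28a1 were listed at 0 in both.

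**Figure D3:**
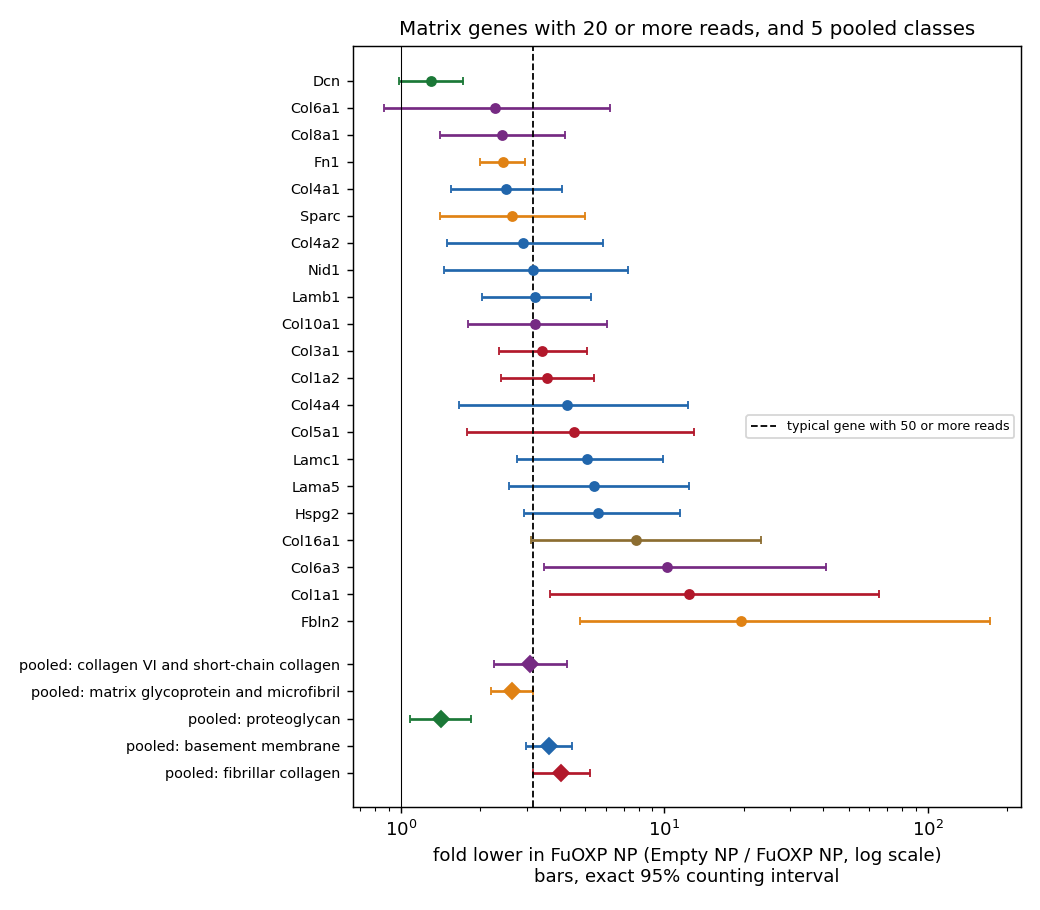
Fold lower in FuOXP NP for the 21 matrix genes with 20 or more recovered reads in both libraries together and for 5 pooled classes, with exact 95% intervals of counting error on a log axis and a dashed line at the typical gene (3.19-fold). Intervals of Fbln2, Col1a1 and Col6a3 lie wholly to the right of the line and those of Dcn and Fn1 wholly to the left; the order of the genes does not depend on scaling, but Dcn and Fn1 were higher in FuOXP NP after rescaling.

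Over the 21 members with at least 20 reads, the interval lay wholly beyond the typical gene for 3 (Fbln2, Col1a1 and Col6a3), wholly short of it for 2 (Dcn and Fn1), and held it for 16. Among all 3266 genes with that many reads, 17.1% lay beyond it and 14.2% short of it. The matrix genes therefore departed from the typical gene about as often as other genes did. The 3 that lay beyond it rested on 2 to 4 reads in FuOXP NP. The interval of Fn1 was short of the typical gene but holds 2.71-fold, the median gene's value with the pseudocount, which the interval does not carry.

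The make-up of the matrix transcripts differed between the libraries mainly through decorin. Fibrillar collagens made up 15.7% (Empty NP) and 10.4% (FuOXP NP) of the summed matrix TPM, and basement membrane genes 25.6% and 21.1%. Proteoglycans made up 13.2% and 26.3%, and the matrix glycoproteins and microfibrils 24.0% and 24.6%. These shares have no error of their own with 1 library per group.

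**Figure D4:**
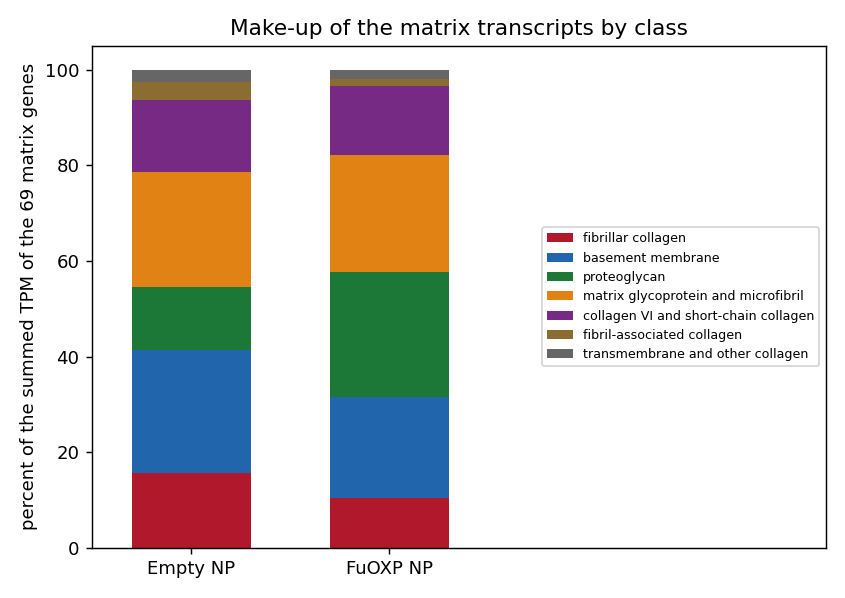
Percent of the summed TPM of the 69 matrix genes held by each class in Empty NP and FuOXP NP, 1 library each, stacked to the whole. The proteoglycan part goes from 13.2% to 26.3% and the fibrillar collagen part from 15.7% to 10.4%, shares that the scaling of a library does not touch.

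Genes that process collagen were lower too, with a median close to the median gene. Of 28 listed genes 19 reached 1 TPM, and 12 of the 19 were at least 2-fold lower and none 2-fold higher, beside 69.8% and 2.34% of all genes, with a median of -1.39. P4hb, the disulfide isomerase subunit of prolyl hydroxylase, was at 69.7 and 42.7 TPM, 1.63-fold lower (1.12 to 2.38). Serpinh1, the collagen chaperone HSP47, was at 30.6 and 16.4 TPM on 21 reads in each library, 1.87-fold lower (0.970 to 3.59). Ppib, a prolyl isomerase of collagen folding, was at 59.4 and 25.8 TPM, 2.30-fold lower (1.52 to 3.49), with exons that overlap Snx22. Loxl3, a lysyl oxidase, was listed at 386 and 233 TPM, but its exons overlap those of Htra2. The pooled list was 2.0-fold lower (1.81 to 2.21), wholly short of the typical gene, and 2.94-fold lower (2.45 to 3.52) without Loxl3, an interval that holds it. P4hb lay short of the typical gene by its whole interval, while those of Serpinh1 and Ppib hold it.

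Of 26 remodelling genes 18 reached 1 TPM and 11 were at least 2-fold lower, with a median of -1.23. Mmp19 was at 170 and 55.9 TPM, 3.04-fold lower (2.37 to 3.92), with exons that overlap Tmem198b. The pooled list was 2.86-fold lower (2.39 to 3.43). The protease inhibitor gene Timp1 was at 36.1 and 17.2 TPM on 9 and 8 reads, 2.10-fold lower (0.719 to 6.26), an interval that holds equality. Timp2, a further inhibitor gene, was at 20.1 and 2.94 TPM on 22 and 6 reads, 6.84-fold lower (2.69 to 20.6). Mmp3, stromelysin-1, went the other way at 11.9 and 23.3 TPM on about 6.01 and 22.0 reads. Its ratio of Empty NP to FuOXP NP was 0.509 (0.169 to 1.29), an interval that holds equality as deposited and lies wholly short of the typical gene.

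Of 25 matrix receptors 15 reached 1 TPM and 9 were at least 2-fold lower, with a median of -1.09. Itgb1, the beta chain of most collagen and laminin integrins, was at 90.8 and 42.1 TPM, 2.16-fold lower (1.61 to 2.89). Cd44, a hyaluronan receptor, was at 19.4 and 6.48 TPM, 3.00-fold lower (1.74 to 5.29). Sdc2, a syndecan, was at 12.9 and 5.74 TPM, and Itgb5 at 7.42 and 7.38 TPM. The interval of Itgb1 lay wholly short of the typical gene and that of Cd44 holds it. The pooled list was 2.41-fold lower (2.03 to 2.88), wholly short of the typical gene, and 2.58-fold lower (2.06 to 3.23) without Itgb1, an interval that holds it. The intervals of Itgb1, of Cd44 and of the list with and without Itgb1 all hold 2.71-fold, the value of the median gene. That value carries the pseudocount, and these intervals do not.

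Of 22 genes of the transforming growth factor beta pathway, which drives matrix production in fibroblasts, 17 reached 1 TPM and 11 were at least 2-fold lower, with a median of -1.35. Smad3, its signal transducer, was at 32.1 and 3.79 TPM on 50 and 11 reads, 8.49-fold lower (4.36 to 18.1). Ltbp1, which stores the latent growth factor in the matrix, was at 15.6 and 3.09 TPM, 5.05-fold lower (2.86 to 9.33). Thbs2 was at 27.1 and 10.3 TPM and Tgfbi at 25.3 and 6.41 TPM. Of these, the interval of Smad3 lay wholly beyond the typical gene. The pooled list was 3.54-fold lower (2.91 to 4.32). In all 4 lists the share of 2-fold lower genes was below the 69.8% of all genes.

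Markers of other tissues also differed between the libraries. Skeletal muscle, whose fibres carry a basement membrane, had 87 reads over 10 markers in Empty NP and 1 in FuOXP NP, with summed levels of 95.9 and 0.317 TPM. Of the 10, 7 were listed at 0 in FuOXP NP and Actn3 and Pvalb in both. Endothelial markers summed to 36.6 and 5.27 TPM over 10 genes on 38 and 13 reads, 5.46-fold lower (2.84 to 11.2), with Tie1 and Vwf at 0 in both. Egfl7, whose exons overlap those of Agpat2, held 21 of the 38 and 3 of the 13 reads, and without it the markers were 3.17-fold lower (1.37 to 7.76). Leukocyte markers summed to 130 and 51.8 TPM over 6 genes, 2.68-fold lower (2.19 to 3.30), with Cd3e at 0 in both. Csf1r, whose exons overlap those of Hmgxb3, held 114 and 46.9 TPM of these, and without it the markers were 4.39-fold lower (2.55 to 7.81). The part of these cells in the levels of the laminins, type IV collagens and other matrix genes was not tested. Keratinocyte markers had 1 read over 7 genes, Krt10 in FuOXP NP. Of 6 epithelial markers that a colon carcinoma could carry, Krt18 had about 1.03 reads in Empty NP and the other 5 were listed at 0 in both libraries.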

How the data were processed

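RNA was sequenced from 1 Empty NP and 1 FuOXP NP library as 75-base paired-end reads, about 73 M to 77 M for each sample according to the labels. Tools named in the submitters' processing notes, with no order, are Cuffdiff, Cufflinks 2.2.1 and STAR 2.6.1a, and the build is GRCm38. The authors deposited TPM values, which sum to 1001107 and 1000649. The sources used here do not give the gene annotation.

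Of 53927 rows, 22240 without a symbol and 26 with a date for a symbol were left out, 54 adjacent rows with equal values were counted once, and the highest row of a repeated symbol was kept. Genes entered with a mean of 1 TPM or more, and a 2-fold difference was called. No test was made, as each group is 1 library.

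Reads were recovered as TPM times GENCODE vM21 exon length, over what 1 read adds on 1000 bases (Empty NP, 3.56 TPM; FuOXP NP, 1.91 TPM). Of values under 10 reads, 80.9% (Empty NP) and 80.8% (FuOXP NP) lay within 0.01 of a whole number. Both values were within 0.02 of whole for 43 of the 52 members above 0. A unit may be a read or a pair, and the numbers are far below the labels'. Pooled folds weigh long genes more. The median gene above 0 had 6.00 reads (Empty NP) and 4 reads (FuOXP NP), which limits the precision.

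Members, classes and lists were chosen with earlier results of these data known. Values are given for members that averaged 5 TPM or had 20 reads, the extremes of each class, and up to 4 abundant genes of each side list. Col4a5, Col5a2, Postn, Lum and Col17a1 fall outside that rule, and their values were added after they were seen. The values of 1 member are not reported here. Steps were tested on simulated data. Promoter sequences are from RefSeq (GRCm38.p6). Python 3.11.15, numpy 2.4.6, pandas 2.3.3, scipy 1.17.1 and matplotlib 3.10.9 were used.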

Additional observations from a re-analysis of the deposited data

How the results depend on the processing

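As deposited, 28 of 34 members were 2-fold lower and none higher. The number lower was 13 with a pseudocount of 5 TPM (background 33.4%), 17 of 18 at a mean of 5 TPM or more (79.7%), 9 of 42 after rescaling without the 20 most abundant rows, and 2 after centring on the median gene, where 12.2% of all genes were. Centring and rescaling each left 2 members 2-fold higher, Dcn and Col23a1. The fibrillar median of -1.68 went to -2.74 and -1.08 with pseudocounts of 0.1 and 5 TPM, -0.24 after centring and -0.59 after rescaling. The basement membrane median of -1.45 went to -0.95 with 5 TPM, -1.12 without the filter, -0.011 after centring, -0.15 after rescaling, and -1.86 from pooled reads. The proteoglycan median of -0.64 went to 0.80 after centring, 0.56 after rescaling, and -1.29 with Hspg2 among the proteoglycans. Pooled reads, members above 0 in both libraries, and side lists without their most abundant gene were alternatives chosen after seeing the data. Other alternatives moved these medians by less than the counting error of the pooled class and these numbers by less than 1.5 times. The cause of these shifts was not tested, and for centring and rescaling they follow from the construction. No replicate could be left out. No paired analysis was possible because each group has 1 library. Most members rest on fewer than 20 reads, so folds of 13 of the 34 are not resolved.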
